A study of Mus musculus with 90 samples.

Results

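The core circadian clock genes are Arntl, Clock, Npas2, Per1, Per2, Per3, Cry1, Cry2, Nr1d1 and Nr1d2. They were taken by gene symbol and made up 10 of the 16593 genes with a probe on the array. The set was chosen with earlier results of these data known, and each member is given whatever its values. They were followed in kidney cortex, kidney medulla, liver, lung and spleen of Balb/c mice, 24 h after an intravenous dose of the alpha emitter astatine-211 (211At). Each tissue had groups injected with 0.064, 0.64, 1.8, 14 and 42 kBq and a group at 0 kBq, with 3 single-colour Illumina bead arrays per group and 90 arrays in all. All groups shared the strain and the time point, and total RNA came from fresh-frozen tissue. The labels used here do not say at which hour of the day tissues were taken, nor whether the 3 arrays of a group came from 3 animals, so p-values measure only the spread between arrays, which may be technical. The comparisons address how transcription in each organ differed with injected activity.

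The mammalian clock is a feedback loop of transcription. BMAL1 (the product of Arntl) pairs with CLOCK, or with its relative NPAS2, and activates genes that carry E-boxes in their control regions, among them the Per, Cry and Nr1d genes and output genes such as Dbp. PER and CRY proteins then block BMAL1 and CLOCK, and REV-ERB alpha and beta (Nr1d1 and Nr1d2) repress Arntl. In organs such as liver and kidney, Arntl transcripts therefore peak at about the opposite time of day to those of Nr1d1 and the Per genes. Per1 is also induced outside the daily cycle, by glucocorticoids and by cAMP signalling.

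Per1 was the member called most often, so its control regions are shown first, with those of 4 further members that the results turn on or that hold a motif. RefSeq (GRCm38.p6) gave 13 windows of 300 bases around the start sites of 9 members, and the 250 bases before the start site are printed for 6 of them. Both strands of each window were searched for the E-box CACGTG, the E-prime box CACGTT, the core of the cAMP response element (CRE) TGACGT, the D-box core TTATGTA and the nuclear receptor motif AGGTCA. Capitals mark the matches.
Per1 window 1 (chr11:69098699-69098948, plus strand): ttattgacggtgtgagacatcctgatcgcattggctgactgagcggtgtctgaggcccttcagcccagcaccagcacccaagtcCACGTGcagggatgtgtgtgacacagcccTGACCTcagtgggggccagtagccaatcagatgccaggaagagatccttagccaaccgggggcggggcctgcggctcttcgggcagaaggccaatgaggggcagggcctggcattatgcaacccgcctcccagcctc
Per1 window 2 (chr11:69099902-69100151, plus strand): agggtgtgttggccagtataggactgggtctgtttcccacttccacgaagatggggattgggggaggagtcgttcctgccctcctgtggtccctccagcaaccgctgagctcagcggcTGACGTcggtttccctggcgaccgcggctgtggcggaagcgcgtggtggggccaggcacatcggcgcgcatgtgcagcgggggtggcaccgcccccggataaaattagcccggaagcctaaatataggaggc
Per3 (chr4:151044666-151044915, minus strand): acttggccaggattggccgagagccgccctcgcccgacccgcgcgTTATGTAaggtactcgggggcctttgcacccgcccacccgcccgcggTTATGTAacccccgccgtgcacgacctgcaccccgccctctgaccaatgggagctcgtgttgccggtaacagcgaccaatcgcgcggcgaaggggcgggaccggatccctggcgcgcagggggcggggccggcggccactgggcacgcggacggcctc
Arntl window 2 (chr7:113207261-113207510, plus strand): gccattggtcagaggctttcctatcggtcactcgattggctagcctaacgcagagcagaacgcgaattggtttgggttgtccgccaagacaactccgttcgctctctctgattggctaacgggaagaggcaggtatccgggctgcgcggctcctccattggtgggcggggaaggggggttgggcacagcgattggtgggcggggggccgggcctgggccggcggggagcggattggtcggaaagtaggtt
Clock window 1 (chr5:76303503-76303752, minus strand): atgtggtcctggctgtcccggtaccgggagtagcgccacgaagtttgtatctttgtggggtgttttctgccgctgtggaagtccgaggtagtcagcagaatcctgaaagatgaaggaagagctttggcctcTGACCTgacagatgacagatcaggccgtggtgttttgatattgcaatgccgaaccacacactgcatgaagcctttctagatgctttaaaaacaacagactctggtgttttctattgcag
Nr1d1 (chr11:98775378-98775627, minus strand): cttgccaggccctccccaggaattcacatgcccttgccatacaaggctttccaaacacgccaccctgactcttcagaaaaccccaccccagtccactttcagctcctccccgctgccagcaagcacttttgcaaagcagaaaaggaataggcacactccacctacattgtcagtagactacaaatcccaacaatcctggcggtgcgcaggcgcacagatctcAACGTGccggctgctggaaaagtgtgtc
The first window of Per1 held an E-box and a receptor motif, and the second held a CRE core. Arntl, the member called most often as a fall when all comparisons within an array set are counted, held a receptor motif 31 bases after its start site, outside the printed stretch. Per3 held the D-box core 2 times, Clock a receptor motif and Nr1d1 an E-prime box. Of the 13 windows 2 held the E-box, 3 the E-prime box, 1 the CRE core, 1 the D-box core and 4 the receptor motif. Over all 32851 windows of that length the shares were 7.15% for the E-box, 4.68% for the E-prime box, 7.51% for the CRE core, 2.63% for the D-box core and 16.3% for the receptor motif. These matches describe the letters of the windows, and no binding was measured.

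Values are log2 intensities after background correction, and a level is the mean of 3 arrays with its SD (n = 3 throughout). A probe was tested in a tissue where it exceeded background (detection p under 0.05) on at least 3 of the 18 arrays. A change was called at an adjusted p under 0.05 from limma, fitted over all 18 arrays of a tissue and adjusted over all tested probes. Changes are given with their standard errors. Shares of all probes refer to calls at an adjusted p under 0.05. The share at an unadjusted p under 0.05 is not given, so member counts at that threshold cannot be set against all probes. Between 11229 and 14456 probes were detected per array. The tissues carried their markers: the alveolar list lay between 13.34 and 13.61 in lung, that of hepatocytes between 11.47 and 12.43 in liver and that of B cells between 10.46 and 11.53 in spleen, as means per array. The proximal tubule list lay between 10.04 and 10.56 in kidney cortex, whereas kidney medulla had 9.34 and 10.04 as its lowest and highest array. For the loop and collecting duct list the lowest and highest arrays were 9.45 and 10.14 in cortex, against 10.36 and 11.04 in medulla.

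The arrays fell into 2 sets by the steps of the deposited values. One set held the 60 arrays of 0, 1.8, 14 and 42 kBq, and the other the 30 arrays of 0.064 and 0.64 kBq. The pair of lowest activities was therefore compared only within itself, because in a comparison with 0 kBq the array set cannot be told apart from the activity. Arrays of one group lay closer together in the first set for the marker lists and for most members. There the marker lists spanned a median of 0.14 between the lowest and the highest array of a group, and at most 0.54, whereas at 0.064 and 0.64 kBq they spanned a median of 0.24 and at most 2.80. The median SD within a group was 0.125 for Per1 in the first set and 0.522 in the second, and it was higher in the second set for Per2, Per3, Arntl, Cry2 and Nr1d1 too. It was 0.245 and 0.248 for Nr1d2, and for Clock it was lower in the second set, at 0.145 in the first and 0.0933 in the second. The fit over 18 arrays shares 1 estimate of spread between both sets. A fit of each set alone called more probes in all 15 comparisons with 0 kBq, so its calls stand beside those of the 18-array fit.

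Markers of other cells differed between some groups. In spleen the 8 exocrine pancreas genes averaged between 14.45 and 14.51 on the arrays of 1.8 kBq, between 10.82 and 10.93 at 14 kBq and between 13.59 and 13.65 at 42 kBq, all detected on every array. At 0 kBq in spleen they averaged 5.17 to 5.29, and 7 of the 8 were detected on no array. In lung the 6 heart muscle genes averaged between 10.89 and 11.0 at 42 kBq, against 8.15 to 8.19 at 0 kBq, and the 5 airway secretory genes between 10.93 and 11.08 at 42 kBq, against 6.97 to 7.09 at 0 kBq. At 14 kBq in lung the airway secretory genes averaged between 9.67 and 9.89, and the 6 neutrophil genes between 8.62 and 8.82, against 10.20 to 10.48 at 0 kBq for the neutrophil genes. In liver the 6 neutrophil genes averaged between 9.75 and 9.79 at 42 kBq, against 8.54 to 8.71 at 0 kBq, and between 7.24 and 7.37 at 14 kBq. In cortex the 6 loop and collecting duct genes averaged between 9.93 and 10.14 at 42 kBq, against 9.51 to 9.53 at 0 kBq. The neutrophil genes averaged between 5.38 and 5.45 at 14 kBq and between 5.59 and 5.73 at 42 kBq in cortex, against 6.09 to 6.20 at 0 kBq. In medulla the 4 fat genes averaged between 5.58 and 5.80 at 1.8 kBq, against 4.71 to 4.90 at 0 kBq. The part of these markers in the changes of Per1, Arntl, Clock and Per2 was not tested, and in bulk tissue fewer cells of a type and less RNA per cell cannot be told apart.

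In each tissue 8 of the 10 members were tested. Cry1, a repressor of CLOCK and BMAL1, exceeded background on 0 of 90 arrays, with group means between 4.33 and 4.65. Npas2 exceeded background on 3 of 90 arrays, with group means between 4.41 and 4.84. Of the tested members, Arntl was detected on 78 of 90 arrays, Per3 on 83 and the others on all 90.

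At 0 kBq the clock genes differed in level between tissues, and spleen was the lowest tissue for most of them. Nr1d1, which encodes the repressor REV-ERB alpha, was at 9.04 ± 0.08 in lung, 8.44 ± 0.10 in kidney medulla, 8.43 ± 0.06 in liver, 8.10 ± 0.09 in kidney cortex and 6.12 ± 0.06 in spleen. Lung exceeded spleen by 2.92 on the log2 scale, with an adjusted p of 9.29e-24 from limma over all 90 arrays, whereas medulla, liver and cortex did not pass the test against each other. Cry2, a cryptochrome repressor, was at 8.38 ± 0.05 in lung, 7.75 ± 0.29 in liver, 7.11 ± 0.17 in cortex, 6.98 ± 0.30 in medulla and 5.95 ± 0.17 in spleen, and cortex against medulla was its only pair that did not pass.

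Per2, Per3 and Nr1d2 shared the low level in spleen. Per2 was at 10.64 ± 0.15 in lung, 10.26 ± 0.10 in cortex, 10.25 ± 0.17 in liver, 10.05 ± 0.14 in medulla and 8.29 ± 0.06 in spleen. Apart from spleen, only lung against medulla passed the test for Per2. Per3 was at 7.08 ± 0.13 in lung, 6.59 ± 0.10 in liver, 6.50 ± 0.10 in medulla, 6.24 ± 0.16 in cortex and 4.94 ± 0.28 in spleen, where 1 of 3 arrays exceeded background. Nr1d2 was at 9.27 ± 0.09 in cortex, 9.22 ± 0.21 in liver, 9.20 ± 0.14 in lung, 8.93 ± 0.44 in medulla and 7.62 ± 0.16 in spleen, and the 4 tissues above spleen did not pass the test against each other.

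Arntl and Per1 were not lowest in spleen, whereas Clock was. Arntl was highest in spleen, at 7.08 ± 0.05, followed by liver at 6.70 ± 0.29 and lung at 6.58 ± 0.24, and these 3 did not pass the test against each other. It was lower in cortex, at 5.67 ± 0.42, and in medulla, at 5.53 ± 0.06, and spleen exceeded medulla by 1.55, with an adjusted p of 1.29e-07. Per1 was at 9.76 ± 0.09 in lung, 8.51 ± 0.13 in medulla, 8.21 ± 0.13 in cortex, 8.09 ± 0.02 in spleen and 7.45 ± 0.15 in liver, and medulla, cortex and spleen did not pass the test against each other. Clock was at 10.09 ± 0.09 in lung, 9.73 ± 0.22 in cortex, 9.53 ± 0.15 in medulla, 9.48 ± 0.05 in liver and 8.87 ± 0.13 in spleen, with cortex, medulla and liver not separated by the test.

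In the fit of all 90 arrays Npas2 had a tested probe too, and 50 of 90 tissue comparisons passed over 9 members, with 0 of 10 for Npas2. The share of all 19538 tested probes that passed was 56.2% for lung against liver, 49.7% for lung against spleen, 50.2% for lung against cortex and 49.4% for lung against medulla. It was 55.8% for liver against spleen, 42.3% for liver against cortex, 45.5% for liver against medulla, 55% for spleen against cortex, 54.5% for spleen against medulla and 18.9% for cortex against medulla. The members' share was thus near that of all probes.

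**Figure D1:**
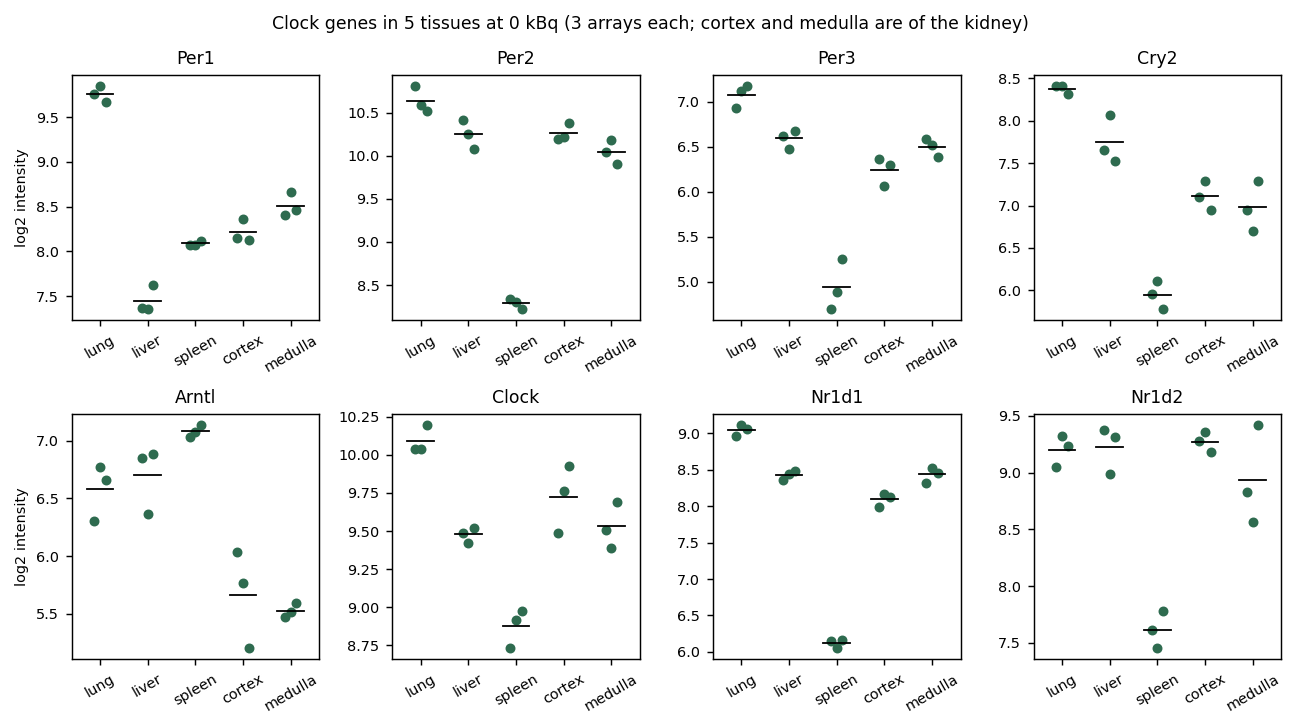
Log2 intensity of the clock genes on the 3 arrays of each tissue at 0 kBq, with all 90 arrays normalised together (points are arrays, lines are means). Nr1d1, Nr1d2, Per2, Per3, Cry2 and Clock are lowest in spleen, whereas Arntl is highest there, with a mean of 7.08.

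Among the activators, Arntl (chromosome 7) had its lowest mean at 42 kBq in each of the 5 tissues, among the activities of its array set. In liver its arrays read 6.23, 5.77 and 6.27 at 0 kBq, 6.19, 5.76 and 5.96 at 1.8 kBq, 5.40, 5.05 and 5.40 at 14 kBq, with 4.59, 4.73 and 4.39 at 42 kBq. The arrays at 14 and 42 kBq lay below all 3 arrays at 0 kBq, and at 42 kBq the probe was not well above background on any array. Arntl was there at least 2.06-fold lower than at 0 kBq, with an adjusted p of 0.00083. The change at 14 kBq was -0.81 ± 0.25, with an adjusted p of 0.126 over 18 arrays and 0.0152 with the array sets fitted apart.

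In lung Arntl read 6.38, 5.48 and 6.02 at 42 kBq, against 6.67, 7.12 and 7.02 at 0 kBq, without overlap. The change of -0.98 ± 0.26 had an adjusted p of 0.104 over 18 arrays and 0.00557 with the sets fitted apart, which also called the change of -0.70 ± 0.26 at 14 kBq. In kidney medulla it read 4.62, 4.82 and 5.38 at 42 kBq, with 1 of 3 arrays above background, against 5.58, 5.63 and 5.71 at 0 kBq. That change of -0.70 ± 0.23 was called with the sets fitted apart, at an adjusted p of 0.0433, and not over 18 arrays, at 0.0864. At 1.8 kBq the medulla arrays stood on the other side of 0 kBq, at 6.11, 5.88 and 6.39, with an adjusted p of 0.134.

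In kidney cortex Arntl was not well above background on any array at 42 kBq and averaged 4.78 ± 0.26, against 5.63 ± 0.42 at 0 kBq. The change was called in neither fit, at adjusted p of 0.178 and 0.0572. Spleen had the narrowest span of means, with 7.03 at 0 kBq, 6.86 at 1.8 kBq, 6.94 at 14 kBq and 6.81 at 42 kBq. The interval of the change at 42 kBq in spleen ran from -0.55 to 0.11.

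Clock (chromosome 5), which encodes the partner of BMAL1, fell in liver. Its arrays there read 9.10, 9.02 and 9.13 at 0 kBq, 8.94, 9.29 and 9.0 at 1.8 kBq, 8.49, 8.55 and 8.52 at 14 kBq, with 8.26, 7.98 and 8.16 at 42 kBq. The groups at 14 and 42 kBq overlapped neither the 0 kBq group nor each other. The change was -0.56 ± 0.12 at 14 kBq, with an adjusted p of 0.0136, and -0.95 ± 0.12 at 42 kBq, with an adjusted p of 3.83e-05. The call at 14 kBq was lost without any one of the 3 arrays of 14 kBq, or without the first or the third array of 0 kBq, at an adjusted p of up to 0.0867. The call at 42 kBq held without any 1 array of its 2 groups, at up to 0.000741.

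In lung Clock averaged 9.90 ± 0.15 at 42 kBq, against 10.27 ± 0.08 at 0 kBq, and in medulla 9.28 ± 0.09 at 42 kBq, against 9.67 ± 0.15 at 0 kBq. The changes of -0.37 ± 0.13 and -0.39 ± 0.12 were called with the array sets fitted apart, at adjusted p of 0.0325 and 0.0124, and not over 18 arrays, at 0.366 and 0.0646. In cortex Clock averaged 9.28 ± 0.18 at 42 kBq, against 9.81 ± 0.23 at 0 kBq. That change of -0.53 was called in neither fit, at an adjusted p of 0.0647 with the sets fitted apart. With the replicate number as a block in the 18-array fit, the falls in cortex and medulla were called, at 0.0321 and 0.0472. A dimmer Clock probe near background was called as a fall in medulla at 1.8 kBq, at least 1.36-fold on average, with an adjusted p of 0.044. It averaged 4.88 ± 0.13 at 1.8 kBq, detected on 0 of 3 arrays. At 0 kBq it averaged 5.56 ± 0.61, detected on 2 of 3, and the groups overlapped. The brightest Clock probe changed there by -0.12 and was not called.

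Of the repressors, Per1 (chromosome 11) was higher than at 0 kBq on average in all 15 comparisons, by 0.02 to 1.75. It rose in 9 of them, with at least 1 in each of the 5 tissues, and in 13 with the array sets fitted apart. In liver the arrays read 6.77, 6.76 and 7.05 at 0 kBq, 7.25, 7.26 and 7.03 at 1.8 kBq, 8.53, 8.22 and 8.27 at 14 kBq, with 8.75, 8.51 and 8.58 at 42 kBq. All arrays of 14 and 42 kBq lay above all arrays of 0 and 1.8 kBq. The change was 1.48 ± 0.30 at 14 kBq (adjusted p = 0.0125) and 1.75 ± 0.30 at 42 kBq (adjusted p = 0.00147), which is 3.36-fold at 42 kBq.

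In kidney cortex Per1 read 8.19, 8.40 and 8.16 at 0 kBq, 9.10, 8.64 and 8.50 at 1.8 kBq, 9.80, 9.73 and 9.64 at 14 kBq, with 9.95, 9.84 and 9.69 at 42 kBq. None of the 3 injected groups overlapped the 0 kBq group. The rises of 1.47 ± 0.22 at 14 kBq and 1.58 ± 0.22 at 42 kBq had adjusted p of 0.0074 and 0.000158. In kidney medulla the arrays read 8.56, 8.82 and 8.63 at 0 kBq, 9.0, 9.24 and 9.26 at 1.8 kBq, 9.64, 9.42 and 9.44 at 14 kBq, with 9.79, 9.78 and 9.94 at 42 kBq. Per1 rose there at all 3 activities, by 0.50 ± 0.16, 0.83 ± 0.16 and 1.17 ± 0.16, with adjusted p of 0.0275, 0.0178 and 0.000173.

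Lung, the tissue with the highest Per1 level at 0 kBq, read 11.06, 10.97 and 10.91 at 42 kBq, against 9.96, 10.05 and 9.88 at 0 kBq. The rise of 1.02 ± 0.22, or 2.03-fold, had an adjusted p of 0.0228. The changes of 0.53 at 1.8 kBq and 0.67 at 14 kBq in lung were called only with the sets fitted apart. In spleen Per1 read 8.81, 8.90 and 8.77 at 14 kBq, against 8.01, 8.01 and 8.05 at 0 kBq, a rise of 0.81 ± 0.18 with an adjusted p of 0.0201. At 42 kBq in spleen the change of 0.61 ± 0.18 was called only with the sets fitted apart, and at 1.8 kBq the change was 0.02, with an interval from -0.36 to 0.41.

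The Per1 calls differed in how they stood without single arrays. Those at 42 kBq in liver, cortex and medulla held without any 1 array of their 2 groups, at adjusted p of up to 0.0122, 0.00213 and 0.00244. Those in lung at 42 kBq and in spleen at 14 kBq were lost without any one of their 6 arrays, at up to 0.14 and 0.0824. The call in liver at 14 kBq was lost without the first or the third array of 14 kBq or the first or second of 0 kBq, at up to 0.0773. In cortex and medulla the call at 14 kBq was lost without the first or second array of 14 kBq or the first or the third of 0 kBq, at up to 0.0832 and 0.131. The call in medulla at 1.8 kBq was lost without the second or the third array of 1.8 kBq or the first or the third of 0 kBq, at up to 0.0997. The dimmer Per1 probe moved in the same direction and was not called in 4 of these comparisons, with adjusted p of 0.0585 in lung at 42 kBq, 0.0602 in liver at 14 kBq, 0.0536 in medulla at 14 kBq and 0.424 in medulla at 1.8 kBq.

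**Figure D2:**
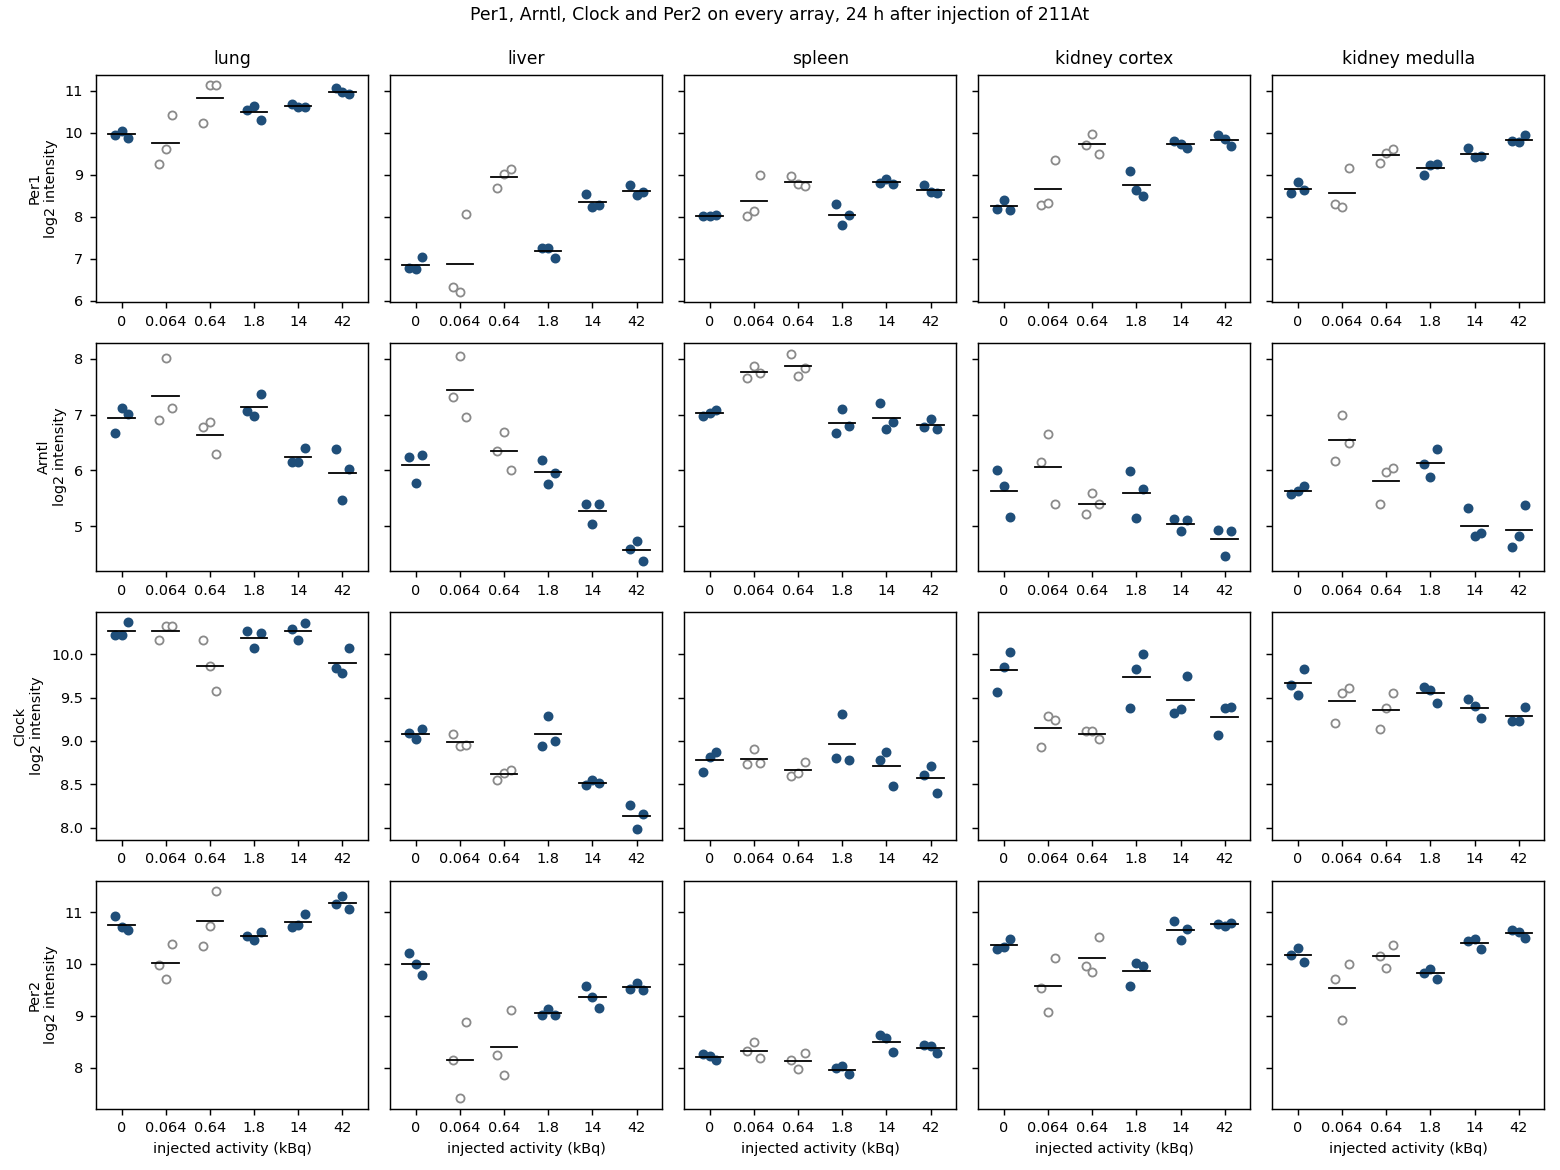
Log2 intensity of Per1, Arntl, Clock and Per2 on every array, by injected activity in kBq and by tissue (points are arrays, lines are means, open points the arrays of 0.064 and 0.64 kBq). Per1 in liver lies between 8.51 and 8.75 at 42 kBq, above the 0 kBq arrays at 6.76 to 7.05, and its arrays at 0.064 kBq lie apart, at 6.33, 6.21 and 8.06.

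Per2 (chromosome 1) was called in 0 of 15 comparisons with 0 kBq by limma over 18 arrays, where 7 had an unadjusted p under 0.05, and in 7 with the sets fitted apart, of which 2 rose and 5 fell. Among the activities of its array set its mean was lowest at 1.8 kBq in all 5 tissues. In liver its 3 arrays of 0 kBq lay between 9.79 and 10.20, and the others read 9.01, 9.14 and 9.01 at 1.8 kBq, 9.58, 9.37 and 9.15 at 14 kBq, with 9.52, 9.63 and 9.50 at 42 kBq. All 3 injected groups lay below the 0 kBq group. The change at 1.8 kBq was -0.94 ± 0.28, with an adjusted p of 0.0586 over 18 arrays and 7.1e-07 with the sets fitted apart.

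In medulla Per2 read 10.17, 10.31 and 10.04 at 0 kBq, 9.83, 9.90 and 9.72 at 1.8 kBq, 10.45, 10.49 and 10.29 at 14 kBq, with 10.65, 10.61 and 10.50 at 42 kBq. With the sets fitted apart it fell there by 0.36 at 1.8 kBq and rose by 0.41 at 42 kBq, with adjusted p of 0.00323 and 0.00382. In that fit it also fell in cortex at 1.8 kBq, by 0.51, and rose in lung at 42 kBq, by 0.42.

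Per3 (chromosome 4), another Period gene, was called in 0 of 15 comparisons over 18 arrays, where 6 had an unadjusted p under 0.05. With the sets fitted apart it rose in 5. In liver it read 6.74, 7.12 and 6.82 at 42 kBq, against 6.01, 5.87 and 6.06 at 0 kBq, without overlap. That change was 0.91 ± 0.33, with an adjusted p of 0.15 over 18 arrays and 0.00102 with the sets fitted apart. In cortex Per3 averaged 6.95 ± 0.04 at 14 kBq and 6.86 ± 0.05 at 42 kBq, against 6.21 ± 0.16 at 0 kBq, and with the sets fitted apart it rose by 0.73 and 0.65.

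Cry2 (chromosome 2) was called in 0 of 15 comparisons over 18 arrays, where 5 had an unadjusted p under 0.05, all with a higher mean. With the sets fitted apart it rose in liver at 14 kBq, where it read 7.71, 7.92 and 7.88, against 7.08, 7.52 and 6.93 at 0 kBq, with an adjusted p of 0.00525. It rose in that fit in medulla at 42 kBq too, where it averaged 7.59 ± 0.15, against 7.13 ± 0.30 at 0 kBq, with an adjusted p of 0.0481. Over 18 arrays the adjusted p were 0.0684 and 0.172. With the replicate number as a block in the 18-array fit, the rise in liver at 14 kBq was called, at an adjusted p of 0.044.

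The REV-ERB genes changed by less than 0.5 in every comparison with 0 kBq. Nr1d1 (chromosome 11) ranged between -0.45 and 0.37 and was called in 0 of 15 comparisons over 18 arrays, where 1 had an unadjusted p under 0.05. It averaged 8.85 ± 0.13 in lung at 1.8 kBq, against 9.30 ± 0.08 at 0 kBq, and 8.29 ± 0.13 in liver at 1.8 kBq, against 7.92 ± 0.07 at 0 kBq. With the sets fitted apart it fell in lung and rose in liver at this activity, with adjusted p of 0.0192 and 0.0329. Nr1d2 (chromosome 14) ranged between -0.39 and 0.39 and was called in neither fit, with an unadjusted p under 0.05 in 2 of 15 comparisons over 18 arrays. The interval of its change at 42 kBq ran from -0.32 to 0.32 in spleen and from -0.38 to 0.73 in medulla.

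All comparisons of a tissue with 0 kBq share the same 3 arrays. The shares of all probes below belong to the called counts, and not to the counts at an unadjusted p under 0.05. In lung 0, 0 and 1 of 8 tested members were called at 1.8, 14 and 42 kBq over 18 arrays, with 2, 3 and 5 at an unadjusted p under 0.05, while 0.38%, 0.43% and 0.679% of all tested probes were called. In liver 0, 2 and 3 were called, with 1, 6 and 4 at an unadjusted p under 0.05, against 3.91%, 1.27% and 3.48% of all probes. In spleen 0, 1 and 0 were called, with 0, 3 and 1 at an unadjusted p under 0.05, against 2.77%, 3.31% and 0.523%. These counts stand for Per1 in lung and spleen, and for Per1, Clock and Arntl in liver.

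In kidney cortex 0, 1 and 1 of 8 members were called, with 2, 3 and 5 at an unadjusted p under 0.05, against 1.99%, 0.119% and 1.69% of all probes. In kidney medulla 1, 1 and 1 were called, with 3, 4 and 6 at an unadjusted p under 0.05, against 26.6%, 0.431% and 5.07%. At 1.8 kBq in medulla the members' share was thus below that of all probes. The median change of the 8 members at 42 kBq was 0.31 in lung, 0.23 in liver, 0.12 in spleen, 0.27 in cortex and 0.30 in medulla, beside -0.02, -0.01, -0.02, -0.02 and 0.01 over all tested probes.

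With the array sets fitted apart, 38 of 120 comparisons of members with 0 kBq were called, against 12 of 120 over 18 arrays. Called members at 1.8, 14 and 42 kBq numbered 2, 2 and 4 in lung, against 4%, 5.99% and 2.26% of all probes. They numbered 2, 6 and 5 in liver, against 14.8%, 7.94% and 12.5%. In spleen they numbered 0, 1 and 1, against 8.8%, 11.4% and 1.77%, with 1 at an unadjusted p under 0.05 at 1.8 kBq. All calls of Arntl and Clock in this fit were falls, and all calls of Per1, Per3 and Cry2 were rises.

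In the same fit called members numbered 2, 2 and 2 in cortex, against 8.98%, 2.77% and 5.65% of all probes, and 2, 1 and 6 in medulla, against 33.3%, 2.55% and 10.5%. Per1 made 13 of the 38 calls, Per2 7, Arntl 5, Per3 5, Clock 4, Cry2 2 and Nr1d1 2.

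**Figure D3:**
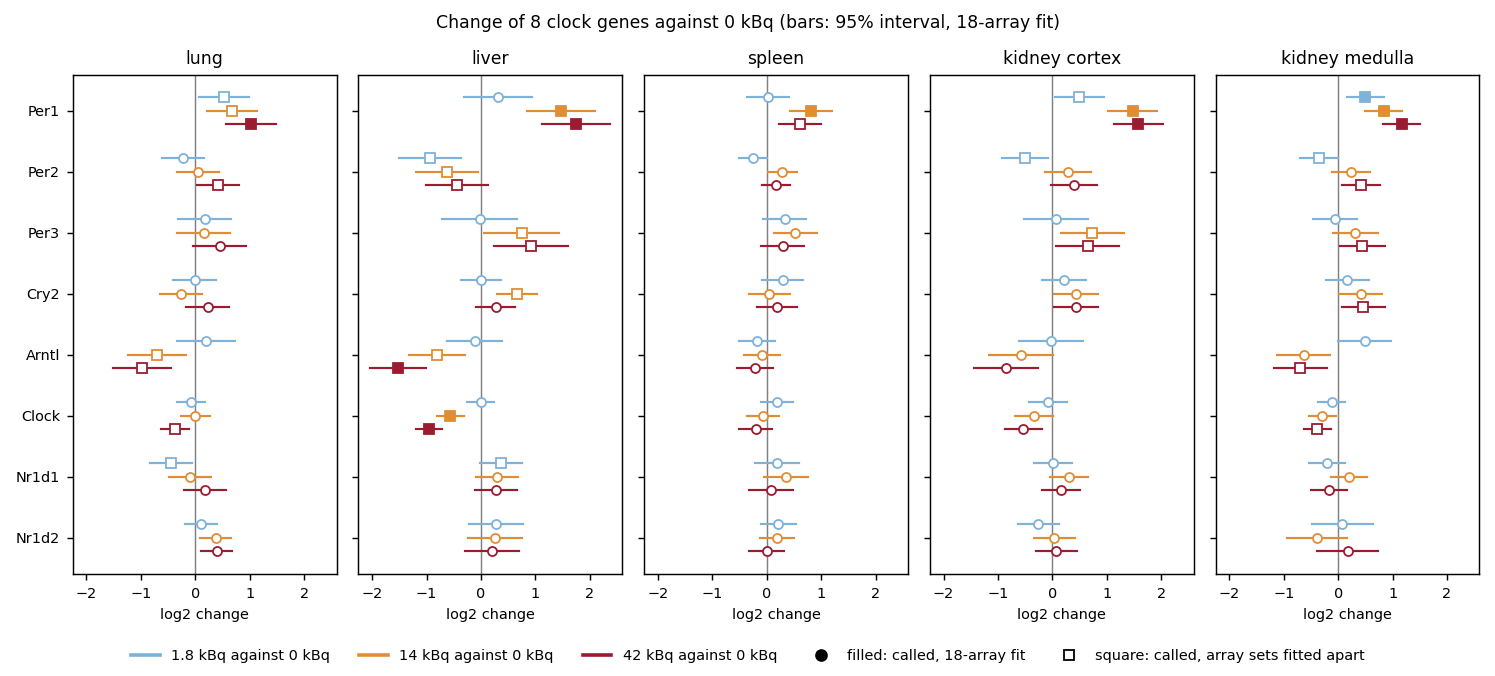
Log2 change of 8 clock genes at 1.8, 14 and 42 kBq against 0 kBq in 5 tissues, with 95% intervals from the 18-array fit (filled symbols were called there, squares with the array sets fitted apart). Per1 lies above 0 in all 15 comparisons, and Clock is lowest in liver at 42 kBq, at -0.95.

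The comparison of 42 with 1.8 kBq does not use the arrays of 0 kBq. In liver Arntl was at least 1.9-fold lower at 42 than at 1.8 kBq, with an adjusted p of 0.00179. Clock fell there by 0.94 ± 0.12 and Per1 rose by 1.43 ± 0.30, with adjusted p of 4.74e-05 and 0.00714. In medulla Arntl averaged 4.94 ± 0.39 at 42 kBq, against 6.13 ± 0.25 at 1.8 kBq, a change of -1.18 ± 0.23 with an adjusted p of 0.00191, and in lung it fell by 1.18 ± 0.26, with an adjusted p of 0.017. In cortex and medulla Per1 rose by 1.08 ± 0.22 and 0.67 ± 0.16 (adjusted p = 0.00579 and 0.0106), and Per2 rose by 0.91 ± 0.20 and 0.77 ± 0.17 (adjusted p = 0.0135 and 0.00482).

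With the replicate number as a block Clock also fell in cortex, by 0.46, with an adjusted p of 0.0381. Some of the calls rested on single arrays. Without the first or the third array of 1.8 kBq, or the second or the third of 42 kBq, the fall of Arntl in lung was lost, at an adjusted p of up to 0.131. The rise of Per1 in medulla was lost without the first array of 1.8 kBq or the third of 42 kBq, at up to 0.0603, and that of Per2 in cortex without the first array of 1.8 kBq or the first or the third of 42 kBq, at up to 0.0853. A Per2 probe near background, at means of 4.89 in cortex and 5.01 in medulla over 18 arrays, changed by 0.17 and 0.15 and was not called.

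Over the 5 tissues 9 of 40 comparisons of members at 42 against 1.8 kBq were called over 18 arrays, with 21 at an unadjusted p under 0.05, and 18 of 40 with the sets fitted apart. Called members were 1 of 8 in lung, 3 in liver, 0 in spleen, 2 in cortex and 3 in medulla, against 1.36%, 4.45%, 0.712%, 4.23% and 8.56% of all probes, and 3 members in spleen had an unadjusted p under 0.05. With the sets fitted apart they were 4, 5, 1, 4 and 4, against 5.06%, 14.8%, 1.92%, 11.2% and 14.3%.

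**Figure D4:**
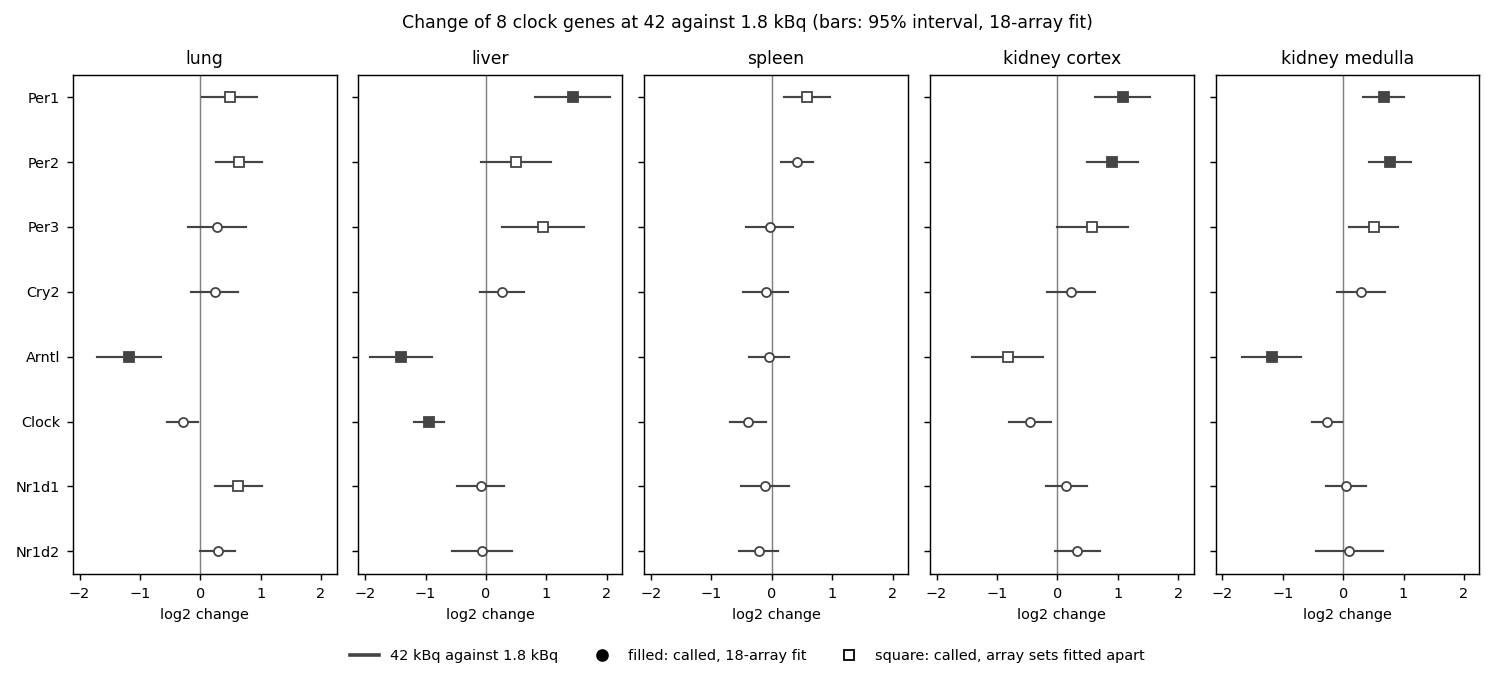
Log2 change of 8 clock genes at 42 against 1.8 kBq in 5 tissues, with 95% intervals from the 18-array fit (filled symbols were called there, squares with the array sets fitted apart). Per1 lies above 0 and Arntl below 0 in each tissue, with the Arntl change in spleen at -0.05.

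Within the second array set, Per1 in liver read 8.68, 9.03 and 9.14 at 0.64 kBq, against 6.33, 6.21 and 8.06 at 0.064 kBq. In medulla it read 9.27, 9.52 and 9.62 at 0.64 kBq, against 8.30, 8.23 and 9.16 at 0.064 kBq. The third array of 0.064 kBq stood above the other 2 in all 5 tissues, by 0.80 in lung, 1.73 in liver, 0.87 in spleen, 1.02 in cortex and 0.86 in medulla. Over 18 arrays Per1 rose by 2.08 ± 0.30 in liver and 0.91 ± 0.16 in medulla, with adjusted p of 0.000522 and 0.00411, but in the second set alone these were 0.271 and 0.325. Arntl in liver read 6.35, 6.68 and 6.0 at 0.64 kBq, against 7.32, 8.06 and 6.96 at 0.064 kBq. Its fall of 1.10 ± 0.25 had an adjusted p of 0.0163, of 0.0672 without the second array of 0.064 kBq and of 0.385 in the second set alone.

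Called members at 0.64 against 0.064 kBq were 0 of 8 in lung, 2 in liver, 0 in spleen, 0 in cortex and 1 in medulla over 18 arrays, against 0.112%, 5%, 1.29%, 0.106% and 1.15% of all probes. At an unadjusted p under 0.05 there were 5 in lung, 2 in spleen and 4 in cortex. With the replicate number as a block Per1 rose in lung too, by 1.07, and Cry2 in liver, by 0.58, with adjusted p of 0.0484 and 0.0387. Over 18 arrays the dimmer Per1 probe was called as a rise in cortex, by 1.01, with an adjusted p of 0.0202. The brightest Per1 probe changed there by 1.07 and was not called. In the limma fit of the second set alone 0 of 40 were called, against 0% of all lung probes, 0% for liver, 0% for spleen, 0% for cortex and 0.0754% for medulla. An unadjusted p under 0.05 was found for 13 of the 40, and the share of all probes at that threshold is not given.

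Whether the response differed among tissues was tested as an interaction over all 90 arrays. It passed for 1 of 27 tests of 9 members at 3 activities, Arntl at 42 kBq, with an adjusted p of 0.00284. The measured Arntl changes at 42 kBq were -0.98 in lung, -1.52 in liver, -0.22 in spleen, -0.85 in cortex and -0.70 in medulla. These changes come from values normalised within each tissue, whereas the test used all 90 arrays normalised together. The probe was not well above background on any array of 42 kBq in liver and cortex and on 2 of 3 in medulla, so the test compares values near background there and the sizes in liver and cortex have only a bound. Of all probes 16%, 3.27% and 4.3% passed at 1.8, 14 and 42 kBq. Arntl at 42 kBq passed in 60 of 60 fits that left out 1 array of the first set. Of these fits, those without an array of 1.8 or 14 kBq left the compared means unchanged. With the arrays normalised within their tissue 0 of 27 member tests passed, and with the array sets fitted apart 9. The 9 were Per1 and Per2 at all 3 activities, Nr1d1 at 1.8 kBq, Cry2 at 14 kBq and Arntl at 42 kBq. The share of all probes that passed with the sets fitted apart was not counted, so these 9 cannot be set against all probes. Kidney cortex against kidney medulla passed for 0 of 27, with a lowest adjusted p of 0.501, against 7.16%, 0.2% and 1.07% of all probes. Clock passed in neither fit, so calls of Clock in one tissue and not in another are not shown to be a difference between the tissues.

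Genes around the clock were followed through a list of 22 partners, modifiers and outputs, of which 20 were on the array and 13 or 14 were tested per tissue. At 1.8, 14 and 42 kBq against 0 kBq 0, 0 and 1 rose in lung, 2, 0 and 2 in liver, 0, 0 and 0 in spleen, 2, 0 and 1 in cortex and 2, 0 and 0 in medulla. In medulla 1 fell at 1.8 kBq and 1 at 42 kBq. The 3 calls among 13 tested genes in medulla at 1.8 kBq stand beside 26.6% of all probes called there, a share near theirs, and the shares for the other comparisons are those given above for the members. The median change of the list at 42 kBq was 0.21 in lung, 0.26 in liver, 0.17 in spleen, 0.15 in cortex and 0.17 in medulla, beside the medians of all probes given above.

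Usp2, a ubiquitin protease gene with a daily rhythm, averaged 9.52 ± 0.07 in liver at 42 kBq, against 7.86 ± 0.20 at 0 kBq, a rise of 1.66 ± 0.33 with an adjusted p of 0.00534. It rose at 42 kBq in lung by 0.74 and in cortex by 0.74, and fell in medulla at 1.8 kBq by 0.68. Ciart, a repressor of CLOCK and BMAL1, averaged 8.08 ± 0.04 in liver at 42 kBq, against 6.50 ± 0.09 at 0 kBq, a rise of 1.58 ± 0.25 with an adjusted p of 0.000784. At 42 against 1.8 kBq Ciart rose in liver, cortex and medulla, by 1.89, 1.39 and 1.54.

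Other genes of the list were called at 1.8 kBq. Rora, an activator of Arntl that competes with the REV-ERBs, rose by 0.56 in liver, 0.51 in cortex and 0.44 in medulla. Bhlhe40, an E-box repressor, rose in liver at 1.8 kBq by 0.59 and fell in medulla at 42 kBq by 0.29. The casein kinase genes Csnk1e in cortex and Csnk1d in medulla, whose enzymes phosphorylate PER proteins, rose by 0.50 and 0.53. Dbp, an output gene, was not called against 0 kBq in any of the 15 comparisons over 18 arrays. At 42 against 1.8 kBq it rose in lung by 0.72 and in medulla by 0.60.

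A list of 12 glucocorticoid-induced genes was followed because Per1 belongs to that response, and 11 of them were on the array and tested. At 1.8, 14 and 42 kBq 1, 1 and 0 rose in lung, 4, 3 and 4 in liver, 2, 3 and 1 in spleen, 2, 0 and 0 in cortex and 7, 2 and 4 in medulla. None fell in these 15 comparisons. The highest count, in medulla at 1.8 kBq, stands beside 26.6% of all probes called there, and the shares of all probes in the other comparisons are those given above. The median change of the list at 1.8, 14 and 42 kBq was 0.33, 0.21 and 0.41 in lung, 0.27, 0.41 and 0.01 in liver and 0.36, 0.33 and 0.38 in spleen. It was 0.27, 0.25 and 0.29 in cortex and 0.71, 0.22 and 0.43 in medulla. Over all probes the medians of these comparisons lay between -0.03 and 0.01. Mt1, a metallothionein, averaged 14.47 ± 0.04 in liver at 1.8 kBq, against 11.07 ± 0.02 at 0 kBq, a rise of 3.39 ± 0.17, and it rose by 2.03 at 14 kBq and 2.58 at 42 kBq. Fkbp5, a chaperone of the glucocorticoid receptor, rose in liver by 1.43 at 1.8 kBq and 0.96 at 42 kBq.

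In medulla Pdk4, a kinase that restrains pyruvate oxidation, rose by 1.26, 1.31 and 1.41 at 1.8, 14 and 42 kBq. Dusp1, a phosphatase of MAP kinases, rose in lung by 0.92 at 1.8 kBq and 0.64 at 14 kBq and changed by -0.14 at 42 kBq. In spleen Ddit4, an inhibitor of mTORC1 signalling, rose by 1.27 at 1.8 kBq and 1.13 at 14 kBq, and in cortex the cell cycle inhibitor Cdkn1a rose by 1.11 at 1.8 kBq. Cdkn1a is also a target of p53. At 42 against 1.8 kBq, where Per1 rose in liver, cortex and medulla, the median change of the list was -0.46 in liver, -0.01 in cortex and 0.05 in medulla. The part of glucocorticoids in the changes of Per1 was not tested.

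Over the 60 arrays of the first set, with each tissue centred on its mean, the genes most like Per1 by Pearson's r among 8293 genes were Angptl4 (0.87), Pcsk4 (0.82), Dbp (0.81), Per3 (0.81) and Lgals4 (0.80). The most unlike were Dynll1 (-0.83), Clock (-0.80), Tubb2b (-0.75), Creld2 (-0.75) and Arntl (-0.69). For Arntl the most like were Mif4gd (0.72), Tnfaip2 (0.69), Nudt18 (0.68), Spon2 (0.68) and Ddx21 (0.66), and the most unlike were Dbp (-0.84), Usp2 (-0.81), Ciart (-0.73), Slc5a6 (-0.73) and Lpin1 (-0.72). For Nr1d1 the most like were Prxl2b (0.67), Plekhf1 (0.58), Mmrn2 (0.56), Hexdc (0.55) and Cox18 (0.55), the most unlike Spryd7 (-0.58), Ylpm1 (-0.57), Atg3 (-0.56), Cfdp1 (-0.56) and Pigr (-0.53), and r with Arntl was -0.39. These values describe arrays that share groups and processing, and no test goes with them.

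**Figure D5:**
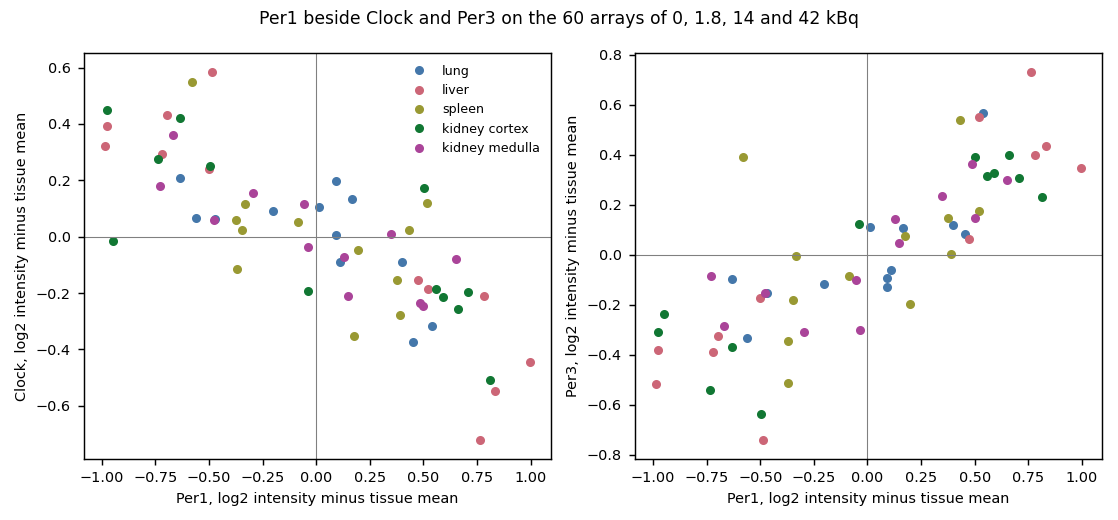
Tissue-centred log2 intensity of Clock and of Per3 against that of Per1 on the 60 arrays of 0, 1.8, 14 and 42 kBq, coloured by tissue. Pearson's r is -0.80 for Clock and 0.81 for Per3, over arrays that share groups.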

How the data were processed

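Total RNA of 5 tissues and 6 activities was measured on 90 Illumina mouse bead arrays. The deposited table holds an intensity per probe and array, unnormalised by its unequal array medians (86.1 to 196), and, per the file headers, a detection p-value beside it. How the authors scanned and summarised the beads is not given in the sources used here. A value table of the authors' processed intensity, linear and with medians of 117.5 to 117.9 in one array set and 164.8 to 165.5 in the other, served as an alternative, its method likewise not given.

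Intensities were background-corrected by normexp from detection p-values (offset 16), quantile-normalised within each tissue and put on the log2 scale. Of 25697 probes 23978 had 1 gene symbol and 1719 had none. limma 3.58.1 (R 4.3.3) fitted 1 mean per group over the 18 arrays of a tissue, with 12 residual degrees of freedom and a trended variance, and p-values were adjusted per comparison by Benjamini-Hochberg. A fit of all 90 arrays, normalised together, served tissue pairs and interactions, with 60 residual degrees of freedom. The probe with the highest mean stands for a gene. Where a group was not well above background on any array, a fold is given as a bound, against the lowest signal above background on each array. The number of arrays limits the precision. The tissue fits and the interaction were tested on simulated data with 1 spread per probe for all arrays. The unequal spread of the 2 array sets was not simulated. Every member is named, with up to 4 called genes per tissue from the list of partners, up to 2 from the glucocorticoid list, and the 5 most like and the 5 most unlike genes of Per1, Arntl and Nr1d1; Dbp and further changes of Ciart were added after their values were seen. Members and lists were chosen with earlier results of these data known.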

Additional observations from a re-analysis of the deposited data

Results flagged for a closer look

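The response of Arntl at 42 kBq differed among the 5 tissues in the interaction test of limma over 90 arrays, with an adjusted p of 0.00284, and was the only one of 27 member tests to pass. The measured change against 0 kBq was -1.52 in liver, -0.98 in lung, -0.85 in cortex, -0.70 in medulla and -0.22 in spleen. These changes come from values normalised within each tissue, and not from the 90 arrays normalised together that the test used. Arntl was not well above background on any array of 42 kBq in liver and cortex, so those 2 sizes have only a bound. The test passed in 60 of 60 fits that left out 1 array, at an adjusted p of up to 0.023, and did not pass with median centring or with the arrays normalised within their tissue.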

How the results depend on the processing

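Over 18 arrays the clock gene calls against 0 kBq numbered 1 for lung, 5 for liver, 1 for spleen, 2 for cortex and 3 for medulla, with 3 at 0.64 against 0.064 kBq and 9 at 42 against 1.8 kBq, and 50 tissue pairs and 1 interaction passed. No called change reversed under any alternative. Fitting the array sets apart, adding a replicate block or dropping the trend keeps the size of a change. Those alternatives could not have reversed it. With the array sets fitted apart the counts were 8, 13, 2, 6, 9, 0 and 18 for the comparisons in that order, and 9 interactions passed. With a replicate block added to that fit, chosen after seeing the data, they were 8, 13, 3, 10, 13, 0 and 23, with 9 interactions. With only the 2 groups of a comparison they were 7, 13, 2, 7, 7, 0 and 16. With array weights they were 7, 11, 2, 4, 5, 10 and 15, with 3 interactions. Median centring gave 3 in liver, 0 in spleen, 5 at 0.64 against 0.064 kBq and 0 interactions. Without an intensity trend lung had 0 and medulla 1. Interactions numbered 2 without background correction, 2 with the authors' deposited values and 0 with the arrays normalised within their tissue. The share of all probes that passed the interaction was not counted under any alternative. At 0.64 against 0.064 kBq there were 6 with the filter within the array set and 6 with the mean of a gene's probes. The cause of these shifts was not tested. Median centring also ended the calls of Clock in liver at 14 against 0 and 42 against 1.8 kBq and of Per1 at 14 kBq in liver and spleen and at 1.8 kBq in medulla. Without an intensity trend Per1 was not called in medulla at 1.8 and 14 kBq and in lung at 42 kBq, with the mean of a gene's probes not in medulla at 1.8 kBq, and with the authors' deposited values Arntl was not called in lung at 42 against 1.8 kBq. Over all probes and the 15 comparisons with 0 kBq 7925 calls were made, against 18733 with the array sets fitted apart, 26814 with the block added to that, 18142 with only the 2 groups, 17479 with array weights and 5234 with median centring. Leaving out 1 array gave 0 to 1 in lung, 3 to 5 in liver, 0 to 1 in spleen, 1 to 2 in cortex, 1 to 4 in medulla, 2 to 6 at 0.64 against 0.064 kBq, 8 to 9 at 42 against 1.8 kBq, 48 to 50 tissue pairs and 1 interaction. The labels do not say what a replicate number stands for. Within a tissue the 3 correlations of same-numbered arrays were all over 0.1 in 7 of 25 comparisons and arrays correlated best with their own number in 14, so pairing was not general. Across tissues at the same activity they were all over 0.1 in 0 of 40 tissue pairs of the first array set and 6 of 20 of the second. With activity and number as a random replicate block over tissues, added after seeing the data, 50 tissue pairs and 1 interaction passed, and 9 interactions with the array sets apart. The replicate block gave 5 calls at 0.64 against 0.064 kBq and moved no other count by over 1.5 times. Further probes of a gene differed in call in 8 of 145 comparisons and were called in the opposite direction in 0.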
